A study of Mus musculus with 12 samples.

Results

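The transcripts of 10 heat shock chaperones were followed in mouse colonic epithelial cells with and without the transcription factor TFEB. The genes were *Hspa8*, *Hspa1a*, *Hspa1b*, *Hsp90aa1*, *Hsp90ab1*, *Hspd1*, *Hspe1*, *Hspb1*, *Dnajb1* and *Hsph1*, chosen by name from the 47632 genes of the expression tables, where each has 1 row. The cells came from the colons of C57/BL6 mice. *Tfeb* dIEC animals, labelled KO, carry *Tfeb* flox/flox alleles and villin-Cre, which deletes *Tfeb* in the intestinal epithelium but not in other cells. Controls, labelled WT, were *Tfeb* flox/flox animals, so that both genotypes carry the floxed alleles. Each genotype was sampled on Day 0 (basal), Day 4 and Day 11 of a course of dextran sodium sulfate (DSS), a detergent-like polymer given in drinking water that injures the colonic epithelium. The labels give 2.5% DSS, and the methods give a lower concentration. The methods describe a course of DSS followed by water, with Day 11 at the end of the recovery on water.

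Each of the 6 groups held 2 animals, 12 in all. On Day 0 each genotype had 1 animal of 12 weeks and 1 of 10 weeks, on Day 4 all animals were 12 weeks old, and on Day 11 all were 10 weeks old, so that age and day cannot be told apart between Days 4 and 11. The values are FPKM, fragments scaled to transcript length and to library size, with 1 value per genotype and day that the authors' software made from both animals. No value per animal was used, so no SD, n or test accompanies the values below, and no difference was set against the spread between animals. A difference between genotypes is given on the log2(FPKM + 1) scale as *Tfeb* dIEC minus *Tfeb* flox/flox, which understates the change of low genes. Since RNA came from many cells at once, fewer cells of a type and less RNA per cell cannot be told apart.

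Chaperones keep proteins folded. In the cytosol, HSP70 proteins hold unfolded stretches of a client protein in a cycle driven by ATP, J proteins such as DNAJB1 bring them clients and stimulate the ATPase, and HSP110 proteins such as HSPH1 exchange the nucleotide. HSP90 acts later, on clients such as kinases and steroid receptors. In mitochondria, HSPD1 (HSP60) forms a barrel in which proteins fold, and HSPE1 (HSP10) is its lid. Some of these genes are constitutive (*Hspa8*, *Hsp90ab1*) and others are known for induction by heat shock factor 1 (*Hspa1a*, *Hspa1b*, *Hspb1*, *Dnajb1*, *Hsph1*), which binds alternating GAA and TTC units. TFEB, a regulator of lysosomal and autophagy genes, binds elements with the core CACGTG.

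RefSeq promoter windows on GRCm38.p6, from 250 bases before to 50 bases after a start site, were at hand for 7 of the 10 genes, in 10 windows. Of these 10 windows, 7 hold GAANNTTC or TTCNNGAA, the 2 orders of an adjoining pair of heat shock units, on either strand, and 15.1% of all 32851 windows of the same length do. The 7 windows belong to 6 genes and are not separate cases, since *Hspd1* and *Hspe1* share a site, *Hspa1a* and *Hspa1b* carry copies of another, and the 2 windows of *Hsph1* overlap. *Dnajb1* is the gene with windows but no match, and windows for *Hspa8*, *Hsp90aa1* and *Hsp90ab1* were not used here. In both *Dnajb1* windows, unlike the others, the 50 bases after the start site were not found whole in a transcript. The absence of a match there is therefore less certain. Sites before a RefSeq start site are shown, so that genes that share a site can be set beside their levels below. Capitals mark the GAA and TTC units of such adjoining pairs, and any other GAA or TTC is left in lower case. Each sequence is written 5′ to 3′ on its gene's strand.
*Hspe1*: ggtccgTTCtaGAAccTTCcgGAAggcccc
*Hspa1a*: cgaaactgctgGAAgaTTCctggccccaag
*Hspa1b*: cgaaactgctgGAAgaTTCctggccccaag
*Hspb1*: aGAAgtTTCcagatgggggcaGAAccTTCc
*Hsph1*: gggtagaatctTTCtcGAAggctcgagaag

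The *Hspe1* sequence lies at chr1:55088053-55088082 on the plus strand. It holds 4 alternating units, and 3 in a row occur in 0.603% of all windows. *Hspd1* starts on the opposite strand within the same region, and a window of *Hspd1* holds the same site, so the barrel and its lid share it. GENCODE starts *Hspd1* further out than that window does, and by its coordinates the site lies inside that gene. The other RefSeq window of *Hspd1* (chr1:55088194-55088493) lies around the GENCODE start and holds neither GAANNTTC nor TTCNNGAA. The *Hspa1a* sequence at chr17:34972242-34972271 and the *Hspa1b* sequence at chr17:34959324-34959353, both on the minus strand, are the same. Upstream of their starts these 2 genes match at 247 of 250 bases (98.8%). The *Hspb1* sequence lies at chr5:135887801-135887830 on the plus strand and holds 2 separate pairs. The *Hsph1* sequence lies at chr5:149636351-149636380 on the minus strand. Both *Hsph1* windows also hold 3 alternating units in a row, after their RefSeq start sites and not shown. The sequence shown precedes those start sites, but the GENCODE gene starts at 149636376, so by that annotation its marked units lie after the start. CACGTG occurs in 7.15% of all windows and, among these genes, in windows of *Hsph1* and *Hspd1*. A match is a run of letters, and no binding was measured.

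*Tfeb* itself had 0.901 FPKM in *Tfeb* flox/flox and 0.185 in *Tfeb* dIEC on Day 0. On Day 4 it had 1.08 FPKM in the controls and on Day 11 1.18, and it was listed at 0 in *Tfeb* dIEC on both days. Its level therefore followed the labels, at values close to the lowest that could be read. The labelled cell type was checked too. *Epcam*, *Krt8* and *Krt19*, epithelial genes, had at least 982 FPKM in every group. Of all genes compared on Day 4, 25.6% were at least 2-fold higher in *Tfeb* dIEC and 26.1% at least 2-fold lower. Of 8 epithelial genes, 3 were at least 2-fold higher and none lower, with *Krt20* at 101.4 FPKM in the controls and 931.4 in *Tfeb* dIEC (3.19), *Vil1* at 30.6 and 224.4 (2.83) and *Cdh1* at 24.5 and 164.1 (2.70). Their summed level was 9192 and 10647 FPKM. Of 4 colonocyte genes, 2 were at least 2-fold higher, *Slc26a3* (33.3 and 270.6 FPKM, 2.99) and *Aqp8* (25.3 and 69.3 FPKM, 1.42), where *Aqp8* had been lower on Day 0 (197.8 and 30.1 FPKM, -2.67). Of 11 immune genes, none reached 1 FPKM on Day 0 and 3 did on Days 4 and 11. The summed immune level was 4.19 FPKM in the controls and 7.77 in *Tfeb* dIEC on Day 4, against 2.65 and 1.51 on Day 0, with *Cd79a* and *S100a9* at 0 in both genotypes on Day 4. None of 8 stromal and endothelial genes reached 1 FPKM on any day. Of 4 goblet cell genes, 2 were at least 2-fold higher and 2 at least 2-fold lower in *Tfeb* dIEC on Day 4, with *Tff3* at 28759 FPKM in the controls and 2166 in *Tfeb* dIEC. The part of cell composition in the chaperone differences was not tested.

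Properties of the tables touch every value below. The Day 4 and Day 11 tables are nearly the same: 14.3% of the 11746 genes above 0 on both days in the controls carry the identical value, and 10.2% of 12826 in *Tfeb* dIEC, against none between Days 0 and 4. For the chaperones above 0, the median fold between Days 4 and 11 was 1.13 and the largest 1.49, against 1.67 and 6.76 between Days 0 and 4. None of them carries an identical value. Day 11 is therefore not treated as an independent repeat of Day 4. In addition, the genotype difference ran with transcript length. With the genes divided into 10 groups of equal size by length, the Day 4 median went from -1.89 in the group of the shortest (38 to 485 nt) to 0.65 at 2828 to 3482 nt and was 0.37 in the group of the longest. For Day 0 it went from -1.11 to 0.41 at 3604 to 4665 nt. The difference from the median of the length group, called genes of like length, is therefore given beside the values of the chaperones and beside the main list medians, and the part of length in them was not tested.

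On Day 4, 9 of the 10 chaperones had at least 1 FPKM in either genotype, and they differed from one another in direction. At least 2-fold higher in *Tfeb* dIEC were 2, *Hsph1* and *Hspd1*, where 25.6% of the 9371 genes compared were at least 2-fold higher. At least 2-fold lower were 4, *Hsp90aa1*, *Hspe1*, *Hsp90ab1* and *Hspa1b*, where 26.1% of all genes were. On Day 11 the counts were 2 higher and 3 lower, against 26.1% and 25.7% of 9365 genes, and *Hspa1b* was just short of the limit at -0.98. On Day 0 they were 1 higher (*Hsph1*) and 1 lower (*Hspe1*), against 13.5% and 16.1% of 9993 genes. In order of day, the median over the chaperones was 0.43, 0.09 and 0.08, and that over all genes 0.06, 0.06 and 0.08. Counted from genes of like length, 1 was higher and 3 were lower by 2-fold on Day 4, against 20.1% and 20.8% of all genes on this measure. The counts were the same on Day 11, against 20.1% and 21.1%, and none was higher and 1 lower on Day 0, against 11.8% and 11.8%. That 1 was *Hsp90aa1* at -1.004, while *Hspe1* lay at -0.52 on Day 0 and was not past 2-fold on this measure.

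**Figure D1:**
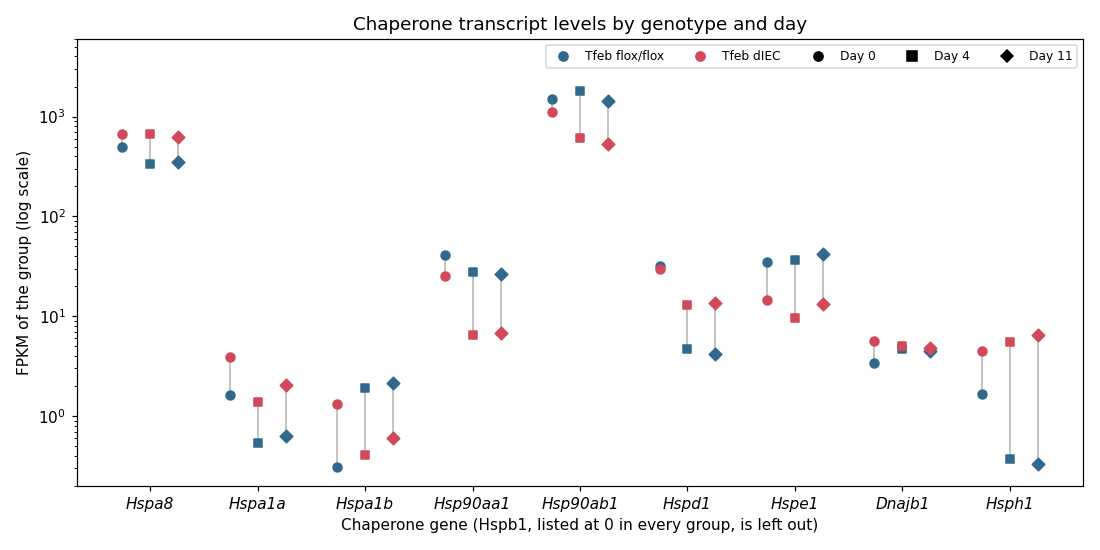
FPKM of each chaperone on a log scale, 1 point per genotype (colour) and day (marker), with a line joining the genotypes of a day. *Hsp90ab1* and *Hspa8* lie at 334.0 FPKM or above in every group and *Hspa1a*, *Hspa1b* and *Hsph1* at 6.54 or below, and the order of the genotypes differs between genes.

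**Figure D2:**
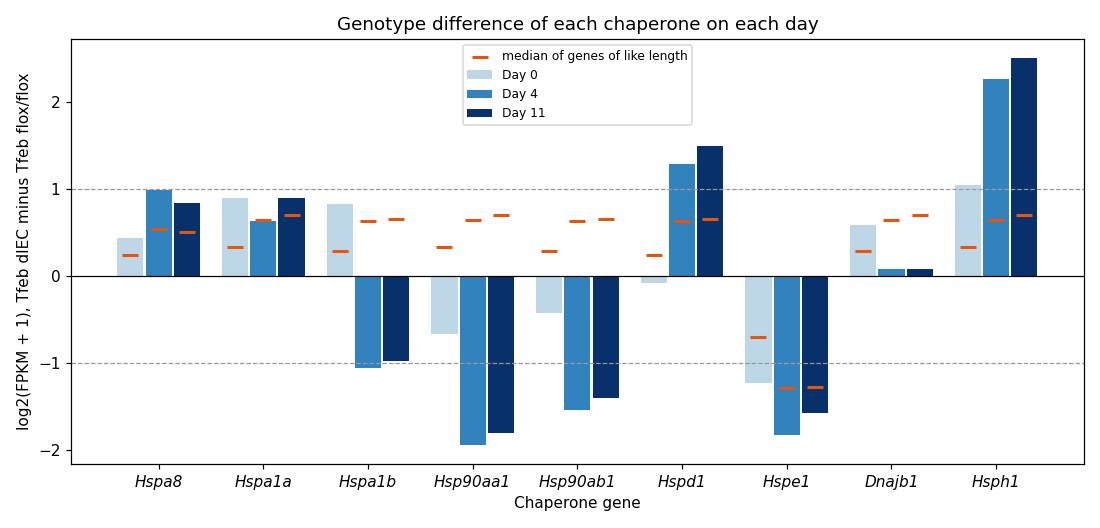
Genotype difference of each chaperone on the log2(FPKM + 1) scale for each day (bars), with the median of genes of like length (orange dashes) and dashed lines at 2-fold. *Hsp90aa1* and *Hsp90ab1* point down where genes of their length have medians above 0, and *Hsph1* points up by more than its length group.

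The constitutive HSP70 gene *Hspa8* (chr9:40800984-40810087, GRCm38) had 499.6 FPKM in *Tfeb* flox/flox and 674.6 in *Tfeb* dIEC on Day 0. The values were 334.0 and 663.1 on Day 4, and 349.3 and 627.4 on Day 11. It was thus higher in *Tfeb* dIEC on every day, by 0.43, 0.99 and 0.84, and the *Tfeb* dIEC level lay within 1.08-fold across the days. Above genes of its length, the difference was 0.19, 0.45 and 0.34. With each group scaled to the same summed FPKM, a step that raised the all-gene median by 0.62 on Day 4 and 0.63 on Day 11, it was 1.82 and 1.67 on these days and past 2-fold. Of the 50-base stretches of its transcripts, 60.6% occur in no other gene, and the gene that shares most is the predicted gene *Gm15459*, so reads could have been split between copies.

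The inducible HSP70 genes *Hspa1a* and *Hspa1b* lie beside each other on chromosome 17 and were low. *Hspa1a* had 1.63 FPKM in the controls and 3.89 in *Tfeb* dIEC on Day 0, 0.544 and 1.39 on Day 4, and 0.636 and 2.04 on Day 11. It was higher in *Tfeb* dIEC by 0.89, 0.63 and 0.89, but it lay at 0.56, -0.02 and 0.19 from genes of its length. *Hspa1b* had 0.308 and 1.32 FPKM on Day 0, 1.92 and 0.405 on Day 4, and 2.17 and 0.605 on Day 11. Its differences were 0.83, -1.05 and -0.98, so this gene was on the other side after Day 0 while *Hspa1a* was not. From genes of like length it lay at 0.54, -1.69 and -1.63. These are the chaperones with the least sequence of their own: 33.7% of the 50-base stretches of *Hspa1a* and 37.7% of those of *Hspa1b* occur in no other gene, and each shares most with the other. Their sum, which does not depend on how reads were divided between them, was 1.94 FPKM in the controls and 5.20 in *Tfeb* dIEC on Day 0, 2.46 and 1.79 on Day 4, and 2.80 and 2.64 on Day 11. The difference of the sum was 1.08, -0.31 and -0.06, so the opposite directions of the pair on Days 4 and 11 are uncertain. An antisense gene, *Gm20481*, overlaps *Hspa1a*, and the kit as described does not mark strand.

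The depth is not given in the tables, but the lowest values give a rough idea of it. From the smallest common step of FPKM times length, 1 fragment was worth about 0.29 to 0.59 FPKM kb in the 6 groups. On this scale *Hspa1b* rested on about 2 to 12 fragments in a group, *Hspa1a* on 3 to 28, and *Hsph1* on 2 in the controls on Days 4 and 11. *Hspa8* and *Hsp90ab1* rested on at least 1250. These numbers were derived after seeing the data, and are approximate where a gene has several transcripts or the 2 libraries of a group differ in depth. Intervals from them cover counting error only, not variation between animals. The *Hspa1b* ratio of 4.28 between *Tfeb* dIEC and the controls on Day 0 has a 95% exact counting interval of 0.881 to 40.5, which includes equality. On Day 4 the controls had 4.73 times the *Tfeb* dIEC level, with an interval of 1.25 to 19.9.

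Both cytosolic HSP90 genes were lower in *Tfeb* dIEC on each day. *Hsp90ab1* (chr17:45567775-45573271), the constitutive form and the most abundant chaperone here, had 1484 FPKM in the controls and 1109 in *Tfeb* dIEC on Day 0. On Day 4 it had 1793 and 615.6, and on Day 11 1417 and 536.4. The difference was -0.42, -1.54 and -1.40. *Hsp90aa1* (chr12:110690605-110702728), the inducible form, had 41.0 and 25.4 FPKM on Day 0, 27.7 and 6.51 on Day 4, and 26.4 and 6.86 on Day 11. Its difference was -0.67, -1.94 and -1.80. The rough counting interval of the Day 4 ratio of controls to *Tfeb* dIEC was 3.18 to 5.81 around 4.26. Genes of like length had medians of 0.64 for *Hsp90ab1* and 0.65 for *Hsp90aa1* on Day 4, both above 0, so the 2 HSP90 genes lay at -2.18 and -2.59 from them. The corresponding values were -0.71 and -1.004 on Day 0 and -2.05 and -2.50 on Day 11. Scaled to the same sum as above, *Hsp90ab1* stood at -0.71 on Day 4 and was no longer past 2-fold, and *Hsp90aa1* stood at -1.17. Of the 50-base stretches, 96.6% of those of *Hsp90ab1* and 52.5% of those of *Hsp90aa1* occur in no other gene.

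*Hspa8* and *Hsp90ab1* made up 94.5 to 96.9% of the summed FPKM of the 10 genes in every group, and *Hsp90ab1* was the higher in both genotypes on Day 0 but in the controls alone on Days 4 and 11, whose tables are nearly the same. In the controls *Hsp90ab1* had 2.97 times the FPKM of *Hspa8* on Day 0, 5.37 times on Day 4 and 4.06 times on Day 11. In *Tfeb* dIEC the ratio was 1.64, 0.928 and 0.855. A ratio within a group does not depend on how the groups were scaled, although it keeps any effect of length, and the 2 transcripts are of 2207 and 2520 nt. By rank, *Hsp90ab1* stood between 74 and 155 among the genes above 0 in all groups, whereas *Hspa8* stood at 407 in the controls and 127 in *Tfeb* dIEC on Day 4.

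**Figure D3:**
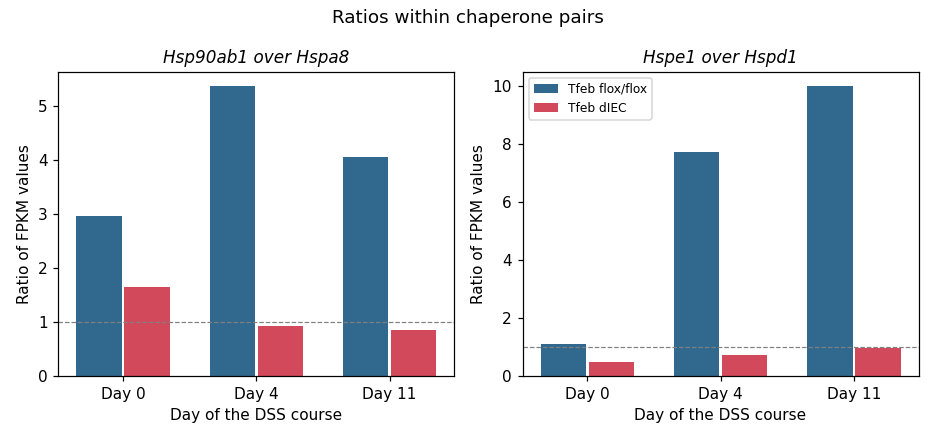
Ratio of the FPKM of *Hsp90ab1* to *Hspa8* (left) and of *Hspe1* to *Hspd1* (right), 1 bar per genotype and day, with a dashed line at a ratio of 1. On Day 4 the ratios were 5.37 and 7.75 in *Tfeb* flox/flox and 0.928 and 0.736 in *Tfeb* dIEC.

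The genes of the mitochondrial pair HSP60 and HSP10 were on opposite sides on Days 4 and 11, whereas on Day 0 both differences were below 0. *Hspd1* (chr1:55077835-55088243) had 31.6 FPKM in the controls and 29.9 in *Tfeb* dIEC on Day 0, 4.68 and 12.9 on Day 4, and 4.16 and 13.6 on Day 11. The difference was -0.08, 1.29 and 1.50. *Hspe1* (chr1:55088132-55091307) had 35.3 and 14.5 FPKM on Day 0, 36.3 and 9.50 on Day 4, and 41.6 and 13.3 on Day 11. It was lower in *Tfeb* dIEC on every day, with differences of -1.22, -1.83 and -1.58. Scaled to the same sum, it stood at -1.04 on Day 4 and, no longer past 2-fold, at -0.78 on Day 11, and *Hspd1* at 2.03 and 2.23. The ratio of *Hspe1* to *Hspd1* was 1.12 in the controls and 0.487 in *Tfeb* dIEC on Day 0, 7.75 and 0.736 on Day 4, and 10.0 and 0.978 on Day 11.

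The 2 genes share the sites shown above and run in opposite directions, and they differ in length, with 2423 nt for *Hspd1* and 774 nt for *Hspe1*. Genes of the length of *Hspe1* had a median of -1.29 on Day 4 and those of the length of *Hspd1* 0.64. Measured from these, *Hspe1* lay at -0.54 and *Hspd1* at 0.66 on Day 4. The values were -0.52 and -0.32 on Day 0 and -0.31 and 0.84 on Day 11, so that neither was past 2-fold on this measure on any day. The ends of the 2 genes overlap on opposite strands, so fragments there cannot be assigned without strand. *Hspd1* has 57.9% of its 50-base stretches in no other gene and shares most with *Hspd1-ps3*, a pseudogene, and *Hspe1* has 77.2% of its own.

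**Figure D4:**
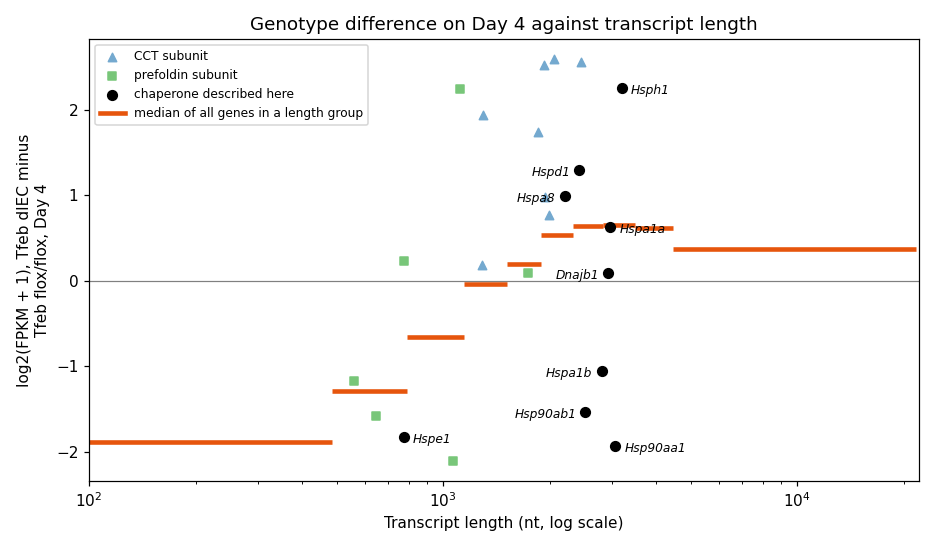
Genotype difference on Day 4 (log2(FPKM + 1)) against transcript length in nt on a log scale, for the chaperones (black), CCT subunits (triangles) and prefoldin subunits (squares), with the median of all genes in each of 10 length groups (orange, the first of which starts at 38 nt, left of the axis). *Hspe1* lies near the median of short genes, and *Hsp90aa1* and *Hsp90ab1* lie at -2.59 and -2.18 from that of genes of their length.

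The HSP70 cochaperones differed from each other. *Hsph1* (chr5:149614287-149636376), the HSP110 exchange factor, had 1.68 FPKM in the controls and 4.53 in *Tfeb* dIEC on Day 0, 0.373 and 5.57 on Day 4, and 0.330 and 6.54 on Day 11. It was higher in *Tfeb* dIEC by 1.04, 2.26 and 2.50, and by 0.71, 1.61 and 1.80 above genes of its length. On the main scale this was the largest difference of the chaperones on Days 4 and 11. From genes of like length those of *Hsp90aa1* and *Hsp90ab1* were larger on both days, and that of *Hspa1b* on Day 4. With a pseudocount of 5 FPKM, *Hsph1* stood at 0.98 on Day 4, and *Hsp90ab1* (-1.54), *Hsp90aa1* (-1.51) and *Hspe1* (-1.51) exceeded it, as they did on Day 11. The Day 4 ratio was 14.9, with a rough counting interval of 3.99 to 127, since the control value rested on about 2 fragments. No other gene shares a 50-base stretch with *Hsph1*. *Dnajb1* (chr8:83608193-83612653), the J protein, had 3.42 and 5.63 FPKM on Day 0, 4.72 and 5.07 on Day 4, and 4.52 and 4.83 on Day 11. Its difference was 0.59, 0.09 and 0.08, and from genes of its length it lay at 0.30, -0.56 and -0.62. *Hspb1* (chr5:135887919-135889563), the small heat shock protein HSP25, was listed at 0 in all 6 groups. Of its 50-base stretches, 49.9% occur in no other gene, and it shares 48.8% with *Hsp25-ps1*, a pseudogene. No fold is given.

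Between days, values come from tables that were scaled separately. From Day 0 to Day 4 in the controls, 1 of the 9 chaperones above 1 FPKM was at least 2-fold lower (*Hspd1*, 6.76 times lower) and 1 at least 2-fold higher (*Hspa1b*), against 25.7% and 17.5% of 9617 genes. In *Tfeb* dIEC 3 were at least 2-fold lower, *Hsp90aa1*, *Hspd1* and *Hspa1a*, and none higher, against 15.6% and 9.26%. The median over the chaperones was -0.55 in the controls and -0.72 in *Tfeb* dIEC, and over all genes -0.20 in both. The order of the genotypes in this median depends on the scaling: divided by the sum of each group it was -1.004 and -0.60, and divided by the median of genes above 1 FPKM in all groups -0.28 and -0.64. *Hsp90ab1* was 1.21 times its Day 0 level in the controls on Day 4, whereas in *Tfeb* dIEC its Day 0 level was 1.80 times that of Day 4. Divided by the sum of each group, the Day 4 level was 0.804 times that of Day 0 in the controls, the other direction, and 0.659 times in *Tfeb* dIEC. *Hspe1* in the controls lay within 1.18-fold across the 3 days, where *Hspd1* did not. Divided by the sum of each group, the Day 4 level of *Hspe1* in the controls was 0.685 times that of Day 0, and that of *Hspd1* 0.0986 times.

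The wider chaperone network was described with 70 further genes in 9 lists. On Day 0, 7 were at least 2-fold higher and 3 lower of the 56 with at least 1 FPKM. On Day 4, 21 were higher and 5 lower of 54, and on Day 11, 21 and 6 of 54, to be read against the shares of all genes given above. Their median was 0.42, 0.59 and 0.62, and 0.21, 0.23 and 0.33 from genes of like length. After division of each group by its sum it was 0.42, 1.21 and 1.34, where that of all genes was 0.06, 0.68 and 0.70. On this scale the Day 4 median was 2.64 for CCT, 1.72 for mitochondrial chaperones and proteases and 1.59 for J proteins. For other HSP70 and HSP110 genes it was 1.33, and for the HSP70 and HSP90 partners 1.29.

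The CCT chaperonin is a ring of 8 subunits that folds actin and tubulin. All 8 differences were above 0 on each day, with a median of 0.45 on Day 0 and 1.84 on Day 4. None was past 2-fold on Day 0, and 5 of 8 were higher by at least 2-fold on Day 4. *Cct4* had 8.80 FPKM in the controls and 58.2 in *Tfeb* dIEC on Day 4, a difference of 2.59, and *Tcp1*, the lowest, 55.4 and 63.2 (0.19). From genes of like length the median was 0.41 on Day 0 and 1.74 on Day 4. In contrast, prefoldin, which hands actin and tubulin to CCT, had 3 of 6 subunits at least 2-fold lower and 1 higher on Day 4. *Pfdn1* had 46.2 and 9.96 FPKM (-2.11), and *Vbp1* was listed at 0 in the controls and had 3.74 FPKM in *Tfeb* dIEC. The prefoldin transcripts are short, with a median of 921 nt, and their Day 4 median was -0.54, but 0.01 from genes of like length and 0.20 after division of each group by its sum.

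Among mitochondrial chaperones and proteases, 6 of 12 were at least 2-fold higher and 1 lower on Day 4. *Hspa9*, the mitochondrial HSP70, had 2.35 FPKM in the controls and 24.9 in *Tfeb* dIEC (2.95). *Trap1*, the mitochondrial HSP90, had 2.85 and 11.9 (1.74), and was thus on the other side from both cytosolic HSP90 genes. *Dnaja3*, the J protein of mitochondria, had 1.89 and 12.7 (2.25). The other members past 2-fold higher were *Clpx*, *Yme1l1* and *Afg3l2*. *Yme1l1* was listed at 0 in the controls on Days 4 and 11, after 5.72 FPKM on Day 0, and had 6.55 FPKM in *Tfeb* dIEC on Day 4. Such a 0 can be a failed estimate. *Clpp*, a protease subunit of 983 nt, was lower (-1.21), but at -0.55 from genes of like length. The list median on Day 4 was 1.18, and 0.60 from genes of like length, where 6 were still past 2-fold higher and none lower. On Day 0 only *Afg3l2* was past 2-fold (1.32).

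**Figure D5:**
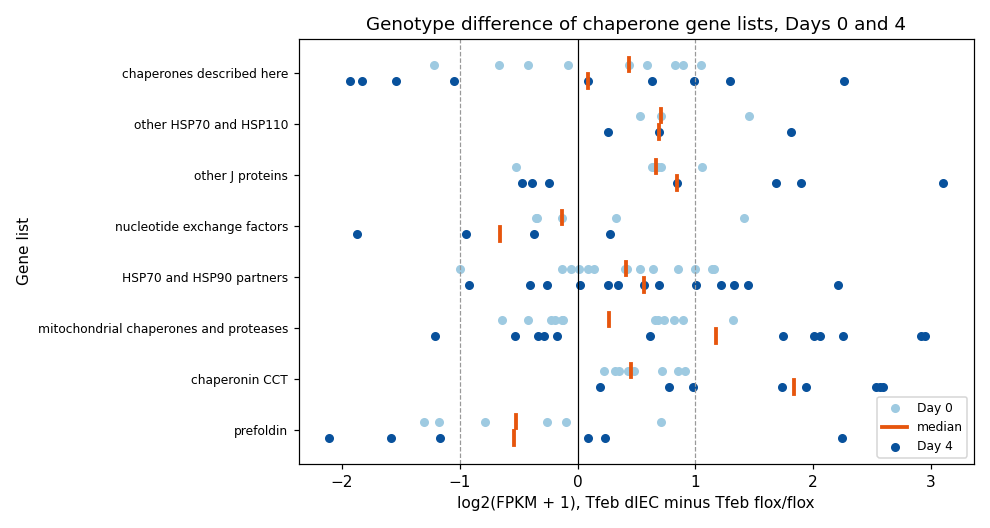
Genotype difference of every gene with at least 1 FPKM in 8 chaperone lists, on Day 0 (light) and Day 4 (dark), with list medians (orange) and dashed lines at 2-fold. The CCT subunits lie above 0 on both days, and the 9 chaperones described here spread from -1.94 to 2.26 on Day 4.

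Of the other cytosolic HSP70 and HSP110 genes, 3 of 4 had at least 1 FPKM and 1 of these was past 2-fold higher, *Hspa4*, a relative of *Hsph1*, at 4.23 and 17.4 FPKM on Day 4 (1.81). The others were *Hspa4l* at 0.69 and *Hspa14* at 0.26, which from genes of like length lay at 0.32 and -0.39. On Day 11 *Hspa4l* stood at 1.87 (1.46 from genes of like length), with a control value of 0.374 FPKM against 2.34 on Day 4, so that 2 of 3 were past 2-fold higher there. Of the J proteins, 3 of 7 were past 2-fold higher on Day 4, *Dnaja2* (5.07 and 51.1 FPKM, 3.10), *Dnajc7* (1.89) and *Dnaja1* (1.69), and the lowest was *Dnajb6* (-0.47, but 0.19 from genes of like length). The list median of 0.84 was 0.23 from genes of like length, where 3 were past 2-fold higher. Among the nucleotide exchange factors, 1 of 4 was past 2-fold lower, *Hspbp1* (11.3 and 2.36 FPKM, -1.87). The list median was -0.66 on Day 4 and -0.52 on Day 11. Division of each group by its sum gave -0.01 and 0.12, and genes of like length gave -0.91 and -0.75. Of the HSP70 and HSP90 partners, 5 of 13 were past 2-fold higher and none lower on Day 4, but 1 higher and 1 lower when counted from genes of like length, and the median of 0.57 became 0.36. The 5 included *Stip1*, which links HSP70 to HSP90 (0.866 and 7.65 FPKM, 2.21, and 1.68 from genes of like length), and *Fkbp4*, an immunophilin of the HSP90 complex (40.9 and 112.9 FPKM, 1.44, and 0.91 from genes of like length). *St13*, which binds HSP70, was the lowest (-0.92, and -1.46 from genes of like length).

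*Hsf1*, the regulator of the heat shock response, had 1.41 FPKM in the controls and 1.16 in *Tfeb* dIEC on Day 4. The difference was -0.16, became 0.32 after division of each group by its sum and was -0.69 from genes of like length. Of the 8 other small heat shock proteins, none reached 1 FPKM on Days 4 or 11, and *Hspb6* had 0.389 and 3.64 FPKM on Day 0. Of 10 immediate early genes, which respond to cell isolation among other stimuli, none was past 2-fold higher and 1, *Egr1*, was past 2-fold lower on Day 4 (-1.11), and their median was -0.12, and -0.34 from genes of like length.

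The genes whose levels over the 6 groups ran most like those of *Hsp90ab1*, by the root mean square of the differences of log2(FPKM + 1) after each gene was centred on its own mean, were *Nme1* (0.09), *Rpl23* (0.12) and *Rpsa* (0.13), of 2368 genes outside the lists with at least 5 FPKM in every group. *Rpsa* had 332.3 FPKM in the controls and 128.4 in *Tfeb* dIEC on Day 4. For *Hsph1*, taken for its Day 4 difference on the main scale, they were *Acads* (0.05), *Chmp2b* (0.09) and *Cyp51* (0.11), and *Acads* had 18.5 and 102.5 FPKM on Day 4. *Hsph1* rested on about 2 fragments in the controls on Days 4 and 11, and the added 1 FPKM compresses its differences, so its nearness to genes of at least 5 FPKM is one on this scale and not one of fold change. Days 4 and 11 being nearly the same, these patterns rest on few separate values.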

How the data were processed

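Colonic epithelial cells from 12 mice were profiled with full-length cDNA libraries (a variation of SmartSeq2) and paired-end MiSeq reads. Per the methods and the submitters' processing notes, reads were mapped to mm10 with TopHat2 2.0.14 and Bowtie, and the genotypes of each day were compared with Cuffdiff 2.1.1. The annotation release is not given in the sources used here. The 3 deposited tables hold 1 FPKM value per genotype, made by the authors from both animals and scaled within a day. Their fold changes, test statistics, p-values and q-values are the authors' own comparisons and were not used.

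Differences were computed as log2(FPKM + 1) over genes with at least 1 FPKM in either genotype. Called means at least 2-fold on that scale. Transcript lengths are medians over basic transcripts of GENCODE M21 (GRCm38), matched for 47218 of 47632 genes, and 10 groups of equal size were formed by length. Genes without a length kept their main value in counts from genes of like length. Reads behind the values are known only through that estimate, and intervals have 95% confidence. Named genes are the 10 chaperones, *Tfeb*, in each list the highest, the lowest and up to 5 more, and the 3 nearest in pattern to *Hsp90ab1* and *Hsph1*. *Gm15459*, *Gm20481*, *Hspd1-ps3* and *Hsp25-ps1* are named as copies or overlaps. The chaperones and lists were chosen with earlier results of these data known. Python 3.11.15, numpy 2.4.6, pandas 2.3.3 and scipy 1.17.1 were used.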

Additional observations from a re-analysis of the deposited data

How the results depend on the processing

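No paired analysis was possible because each genotype has 1 pooled value per day, and no animal could be left out for the same reason. Of the 27 chaperone differences, none took the opposite sign with a pseudocount of 0.1 or 5 FPKM, with each group divided by its sum or when centred on the day's median. Measured from genes of like length, 3 did, *Hspa1a* on Day 4 (-0.02) and *Dnajb1* on Days 4 and 11 (-0.56 and -0.62). Division by the sum moved the median of all genes by 0.00, 0.62 and 0.63 on Days 0, 4 and 11, since the summed FPKM of the controls (1464720 on Day 4) exceeded that of *Tfeb* dIEC (820344).

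Division by the sum moved the median over the chaperones to 0.78 on Day 4 and 0.77 on Day 11, and centring on length moved it to -0.54 on Day 4 and -0.31 on Day 11. Medians that moved by no more than 0.5 were taken as alike. Chaperones past 2-fold higher on Day 0 (1) became 3 with a pseudocount of 0.1, 0 with 5, 0 when centred on the day or on length, 0 at a minimum of 5 FPKM, 4 at 1.5-fold and 0 at 4-fold, and the 1 lower became 2 at 1.5-fold and 0 at 4-fold. On Day 4, the 2 higher became 3 with a pseudocount of 0.1, 0 with 5 and 4 after division by the sum. They became 1 when centred on length, 4 at 1.5-fold and 1 at 4-fold. The 4 lower became 3 with a pseudocount of 5, when centred on length and at a minimum of 5 FPKM. They became 2 after division by the sum and 0 at 4-fold. On Day 11, the 2 higher became 3 with a pseudocount of 0.1 and 4 after division by the sum. They became 1 when centred on length, 4 at 1.5-fold and 1 at 4-fold. The 3 lower became 4 with a pseudocount of 0.1, when centred on the day and at 1.5-fold. They became 1 after division by the sum and 0 at 4-fold. Except for centring on length, no share of all genes is given at these settings. The changes here and in the wider list are therefore not read as results about chaperones.

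In the wider list on Day 0, the 7 higher became 0 with a pseudocount of 5, 3 at a minimum of 5 FPKM, 24 at 1.5-fold and 0 at 4-fold, and the 3 lower became 1 with a pseudocount of 5, 5 at 1.5-fold and 0 at 4-fold. On Day 4, the 21 higher became 23 with a pseudocount of 0.1, 16 with 5 and 29 after division by the sum. They became 20 when centred on the day, 18 on length, 17 at a minimum of 5 FPKM, 27 at 1.5-fold and 11 at 4-fold. For the 21 higher on Day 11 the counts were, in the same order, 24, 16, 31, 21, 18, 16, 29 and 11. Some changes in the other counts of this list are not given. The 5 lower on Day 4 became 3 with a pseudocount of 5, 2 after division by the sum, 3 when centred on length and 1 at 4-fold, and the 6 lower on Day 11 became 3, 2, 3 and 1. Identical values on Days 4 and 11 made up 8.38% in the controls and 3.57% in *Tfeb* dIEC among genes of at least 1 FPKM. Apart from the other thresholds and the minimum of 5 FPKM, where the change follows from the setting, the cause was not tested. Depth limits *Hspa1a*, *Hspa1b* and *Hsph1* most.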
